A study of Homo sapiens with 40 samples.

Results

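The ERK feedback inhibitors measured here were 10 genes, DUSP1, DUSP4, DUSP5, DUSP6, DUSP7, DUSP10, SPRY2, SPRY4, SPRED1 and SPRED2, out of 19774 genes with a probe set and 17220 genes tested. They were named as a list, and every probe set that the array annotation assigns to 1 of these symbols was taken, 22 in all. All 10 genes passed the filter on dim probe sets. The list was chosen by the measured response of DUSP6 to tunicamycin in A414T cells. DUSP6 in every comparison and the A414T responses of all 10 genes are therefore given as values without a test.

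The cells were U87, an established human glioblastoma line. A pCDH vector with a GFP and a puromycin marker carried the empty control, wild-type IRE1 and the IRE1 variants, and whether the dominant negative form was in the same vector is not settled by the labels and methods. IRE1 is a kinase and RNase of the endoplasmic reticulum (ER) that splices XBP1 mRNA and cleaves other RNAs under stress. The lines held the empty vector (EV), wild-type IRE1 (WT), IRE1 with the change S769F, Q780*, P336L or A414T, or a dominant negative form (IRE1-DN), each on top of the cells' own IRE1 gene. Each line was left untreated (basal) or kept in tunicamycin, a blocker of N-glycosylation that causes ER stress, at 0.5 µg/ml for 16 h. Each of these 14 groups had 3 arrays, except both IRE1-DN groups with 2, which makes 40. The labels give the S769F, Q780*, P336L and A414T lines clone numbers, whereas the methods describe the cells selected with puromycin as polyclonal, so whether such a line stands for 1 clone is not settled.

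ERK is the last kinase of the RAS, RAF and MEK cascade below growth factor receptors, and active ERK switches on the genes of its own inhibitors. Dual-specificity phosphatases (DUSPs) remove phosphate from MAP kinases. DUSP6 and DUSP7 act on ERK in the cytoplasm, DUSP5 holds ERK in the nucleus, DUSP1 and DUSP4 are nuclear enzymes that also act on JNK and p38, and DUSP10 acts mainly on JNK and p38. Sprouty proteins (SPRY) and the related SPRED proteins act further up, between the receptor, RAS and RAF. In glioblastoma, where receptor signaling is often raised, transcripts of this group are commonly read as a mark of ERK output.

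The levels below are log2 signals on which 1 unit is a 2-fold difference. Calls were made in limma where the Benjamini-Hochberg adjusted p, taken over all 17220 genes, was under 0.05. Vimentin (VIM), a mesenchymal marker that U87 cells carry, lay between 12.96 and 13.38 on all 40 arrays, while 3 of 9 markers of other cells, PTPRC, CD14 and CDH1, were below the filter signal of 4.27 on all 40. The other 6 passed the filter at low signals, with EPCAM (4.34 to 6.21) and PECAM1 (4.65 to 5.49) above it on all 40 arrays, and the mean of the 9 lay between 4.18 and 4.44 in every group. The 8 stress genes used to check tunicamycin rose in each of the 6 lines tested. ERN1, the gene of IRE1, was read by 3 probe sets that differed in their order of lines. On 1 of them its basal means were 6.25 in S769F, 6.06 in Q780*, 6.02 in A414T, 5.76 in WT, 5.27 in P336L, 5.18 in EV and 4.84 in IRE1-DN cells. On another WT (6.07) lay beside EV (6.09), and on the last S769F (4.88) and Q780* (4.95) lay below EV (5.06), so the excess of ERN1 over EV in these lines was not read by every probe set. Arrays of 1 group correlated at r of 0.9762 or more. The basal IRE1-DN arrays had the lowest ACTB 3' minus 5' signal, a measure of RNA length, at 1.071 and 1.08 against 1.201 to 2.323 on the other arrays.

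Promoters are shown for DUSP6, SPRY2 and SPRY4, whose levels moved together over the groups, and for DUSP1, which was called in no comparison. SPRED2 followed DUSP6 as closely (r = 0.94, against 0.93 for SPRY4) but is not printed. Its windows held none of the motifs marked below. Factor binding was not measured. RefSeq windows on GRCh38.p14, each ending at the base before the start, were found for 8 of the 10 genes, 12 windows in all, and DUSP4 and DUSP5 are named only. The windows printed lie on the minus strand and read 5′ to 3′. SPRY2 had 3 windows, of which the one with matches is printed, and the other 2 held none of the motifs searched. Capitals mark TGACGTCA (the cyclic AMP response element), its core TGACG, which the longer motif contains, and CCGGAA (an ETS factor core), on either strand. The DUSP6 window is chr12:89352502-89352751, the SPRY2 window printed is chr13:80341127-80341376, the SPRY4 window chr5:142324248-142324497 and the DUSP1 window chr5:172771196-172771445.
DUSP6: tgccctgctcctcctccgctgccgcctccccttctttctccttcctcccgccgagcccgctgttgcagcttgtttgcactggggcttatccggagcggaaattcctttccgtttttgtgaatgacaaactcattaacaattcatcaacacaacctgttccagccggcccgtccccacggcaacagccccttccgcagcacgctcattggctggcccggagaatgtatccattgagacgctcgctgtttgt
SPRY2: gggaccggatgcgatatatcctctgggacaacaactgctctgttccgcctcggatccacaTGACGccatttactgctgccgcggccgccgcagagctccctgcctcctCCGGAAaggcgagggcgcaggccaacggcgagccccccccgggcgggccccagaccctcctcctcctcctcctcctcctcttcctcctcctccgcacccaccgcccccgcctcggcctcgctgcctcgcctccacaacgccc
SPRY4: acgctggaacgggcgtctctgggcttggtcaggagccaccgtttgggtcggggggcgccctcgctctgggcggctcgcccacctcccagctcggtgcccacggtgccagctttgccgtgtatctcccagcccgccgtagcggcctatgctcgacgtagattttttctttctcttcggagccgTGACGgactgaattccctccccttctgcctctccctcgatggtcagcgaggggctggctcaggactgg
DUSP1: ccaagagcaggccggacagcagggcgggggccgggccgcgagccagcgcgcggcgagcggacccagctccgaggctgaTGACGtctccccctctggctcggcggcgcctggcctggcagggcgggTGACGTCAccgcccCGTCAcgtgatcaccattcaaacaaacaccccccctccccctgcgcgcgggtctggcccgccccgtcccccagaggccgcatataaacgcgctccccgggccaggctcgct
DUSP1 held 1 full TGACGTCA, which 1.65% of 35114 RefSeq windows of this length hold. The core TGACG was in 3 of the 12 windows (21.2% of all windows), those of DUSP1, SPRY2 and SPRY4, and CCGGAA was in 1, that of SPRY2 (14.5% of all windows). Neither TGANTCA (AP-1, 6.57% of all windows) nor TGACGTGG (the unfolded protein response element, 0.612%) was in any of the 12. The CCAAT box, searched but not marked in capitals, was in 3 of the 12 (32% of all windows), of DUSP6, DUSP10 and SPRED2. These matches describe letters in 250 bases and say nothing of binding.

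**Figure D1:**
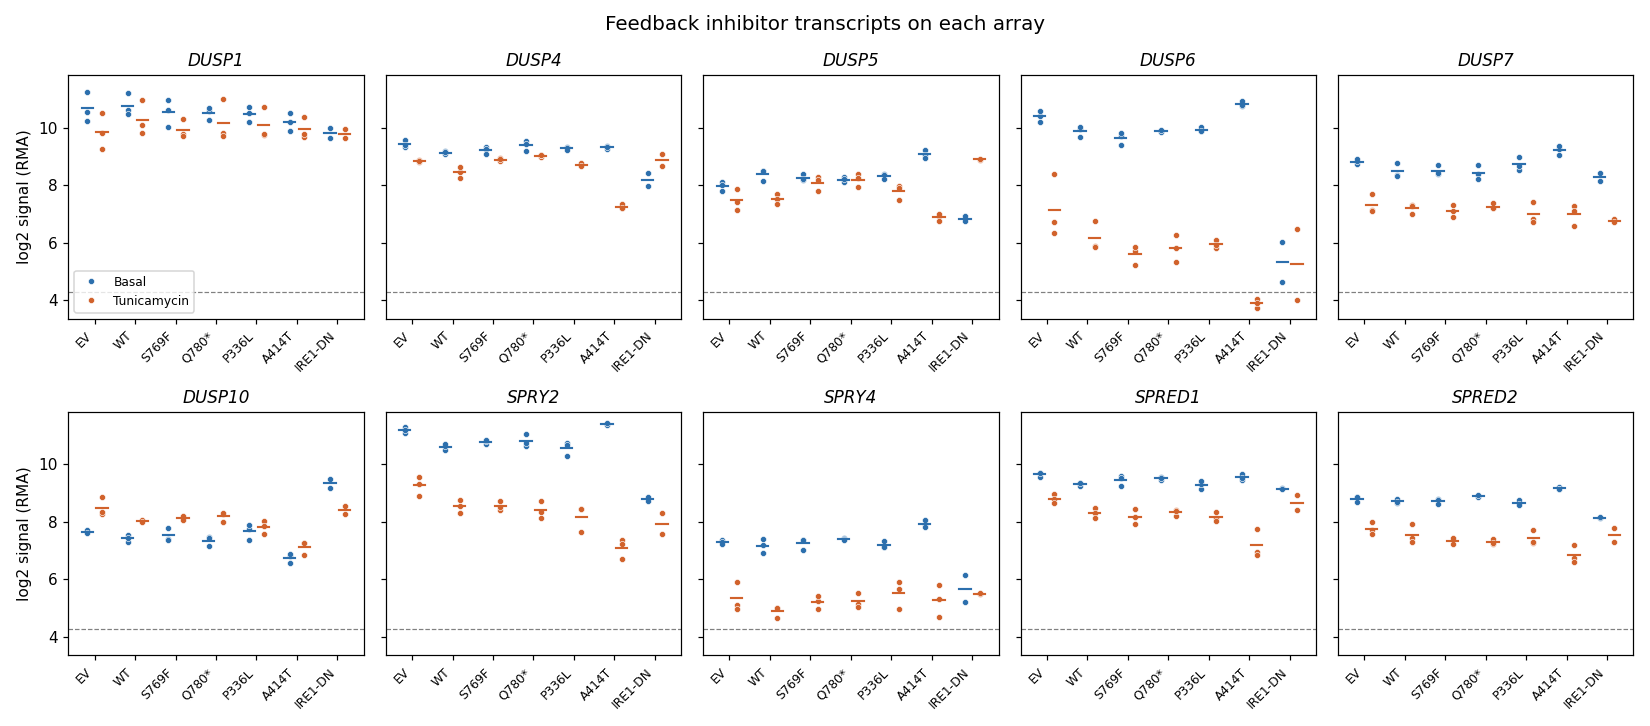
Log2 signal of each of the 10 genes (vertical axis) on every array, by line (horizontal axis), under basal conditions (blue) and tunicamycin (orange), with bars at the group means and a dashed line at the filter signal of 4.27. DUSP6 spanned 3.74 to 10.93, with the tunicamycin arrays of A414T below the dashed line and the basal IRE1-DN arrays at 4.63 and 6.04, far under the other basal arrays.

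DUSP6, the cytoplasmic ERK phosphatase, had the widest range. Its basal signal was 10.20, 10.41 and 10.58 on the EV arrays, 10.76, 10.78 and 10.93 on the A414T arrays, and 4.63 and 6.04 on the IRE1-DN arrays. The 12 arrays of WT, S769F, Q780* and P336L cells lay between 9.40 and 10.04, all below the EV arrays, and A414T lay above every other line without overlap. In IRE1-DN cells DUSP6 was 33.3-fold lower than in EV cells (log2 -5.06 ± 0.48 SE, n = 2 and 3), given without a test because the rule used the same basal EV arrays. In WT, S769F, Q780* and P336L cells the difference from EV ran from -0.75 to -0.46, without a test for the same reason. Leaving out either basal IRE1-DN array gave -4.36 or -5.76, and with the ACTB 3' minus 5' signal as a covariate the difference was -4.67.

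On tunicamycin the 3 A414T arrays read 3.74, 3.90 and 4.02 for DUSP6, all below the filter signal, so that they show only that the transcript was at or near the floor. The EV arrays read 8.39, 6.32 and 6.72, of which the first, replicate 1, stood well above the others, and the 12 arrays of WT, S769F, Q780* and P336L cells lay between 5.23 and 6.75. The IRE1-DN arrays read 6.49 and 4.02, so that 1 lay among those 4 lines and 1 among the A414T arrays. A414T lay lowest by mean. The measured difference between tunicamycin and basal levels was -6.94 in A414T, between -4.09 and -3.25 in EV, WT, S769F, Q780* and P336L, and -0.08 in IRE1-DN cells. The A414T response differed from that of EV by -3.68 (A414T minus EV). With the filter signal in place of the 3 dim A414T arrays, the A414T response on this probe set was a fall of at least 93.8-fold (-6.55). The difference from EV was then -3.30, which is a bound too. The other 2 probe sets gave smaller falls, of at least 66.8-fold on one and of 23.1-fold on the other. Their differences from EV were -2.35, again a bound, and -1.93. These values chose the list and carry no test.

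The other 2 probe sets of DUSP6 gave the same basal order of A414T, EV and IRE1-DN by mean. The measured A414T response was -6.67 on the first, where all 3 tunicamycin arrays were again below the filter signal and the bound is -6.06, and -4.53 on the second, and the basal difference between IRE1-DN and EV was -5.46 and -3.51. The lowest signals of these probe sets were 3.59 and 4.54. Against EV on tunicamycin the DUSP6 difference was -0.99 in WT, -1.55 in S769F, -1.34 in Q780*, -1.20 in P336L and -1.89 in IRE1-DN cells, given without a test because the rule used the same EV arrays. Single arrays set much of these values. Without EV tunicamycin replicate 1 the S769F difference was -0.93 and that of Q780* -0.72, and the IRE1-DN difference was -0.66 without IRE1-DN tunicamycin replicate 3 and -3.13 without replicate 2.

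**Figure D2:**
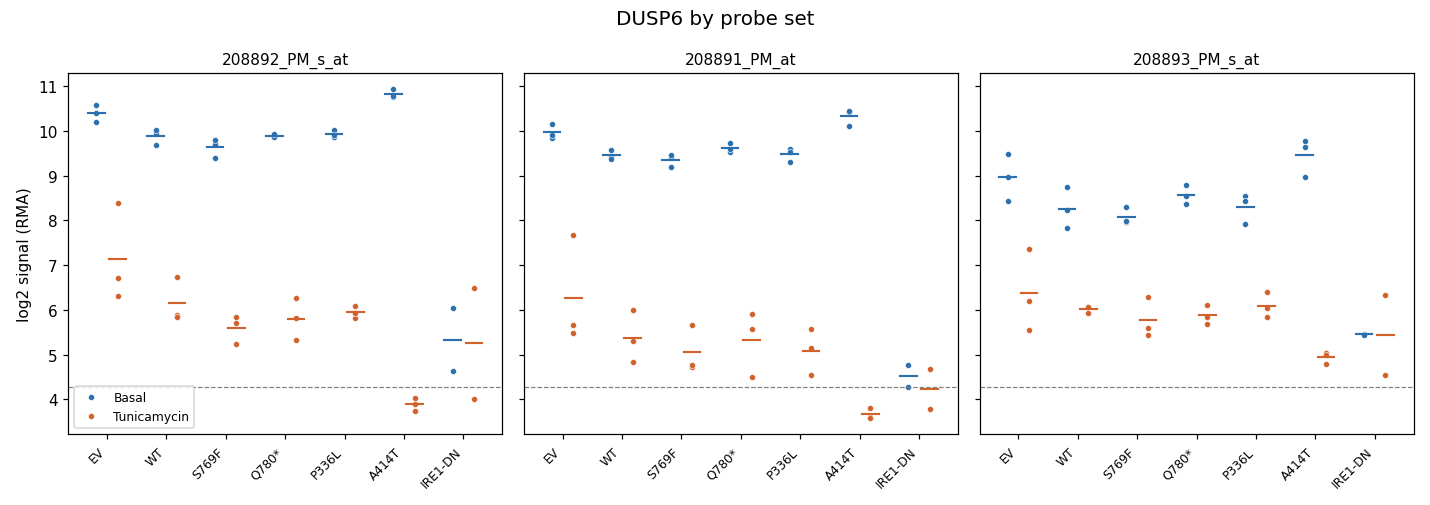
Log2 signal of the 3 DUSP6 probe sets (vertical axis) on every array by line (horizontal axis), basal in blue and tunicamycin in orange, with bars at group means and the filter signal of 4.27 as a dashed line. On the left and middle panels the tunicamycin A414T arrays lie below the line, and on all 3 probe sets the basal IRE1-DN arrays lie far below the other basal arrays.

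Under basal conditions the members differed from EV mainly in IRE1-DN cells. There, of the 9 members other than DUSP6, all but DUSP1 passed the test, DUSP10 higher and the rest lower, against 27.6% of all genes called in either direction. DUSP6, whose basal EV arrays the rule also used, was lower and carries no test. In A414T cells 2 of the 9 members tested passed, against 18.5% of all genes. In WT, S769F, Q780* and P336L cells 0 of the same 9 passed, against 8.57%, 6.15%, 5.17% and 9.04% of all genes.

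On tunicamycin each line had members other than DUSP6 called against EV cells. They numbered 3 of 9 in WT (12.1% of all genes), 3 in S769F (9.03%), 3 in Q780* (9.64%), 3 in P336L (12.2%), 6 in A414T (24.8%) and 2 in IRE1-DN cells (26.0%). Of these 20 calls, 17 were lower and 3, all of DUSP5, were higher. The A414T and EV tunicamycin arrays also carry the response that chose the list. The A414T tests on tunicamycin, here and below, are therefore not independent of that choice. With EV tunicamycin replicate 1 left out, 13 calls were made in these 6 comparisons, and with only the arrays compared in the fit 9 were made. That EV array had the lowest mean of the 8 stress genes among the tunicamycin arrays, 10.77 against 10.93 to 11.37. It also had the lowest signal of the bioB control probe sets among them, 6.486 against 6.582 to 7.211. Its ACTB 3' minus 5' signal was the highest of these arrays, 2.212 against 1.386 to 2.143. Why that array stood out was not tested. With each array of its comparison left out in turn, a call was kept throughout for 0 of 3 members in WT, 0 of 3 in S769F, 1 of 3 in Q780*, 2 of 3 in P336L, 5 of 6 in A414T and 2 of 2 in IRE1-DN cells.

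**Figure D3:**
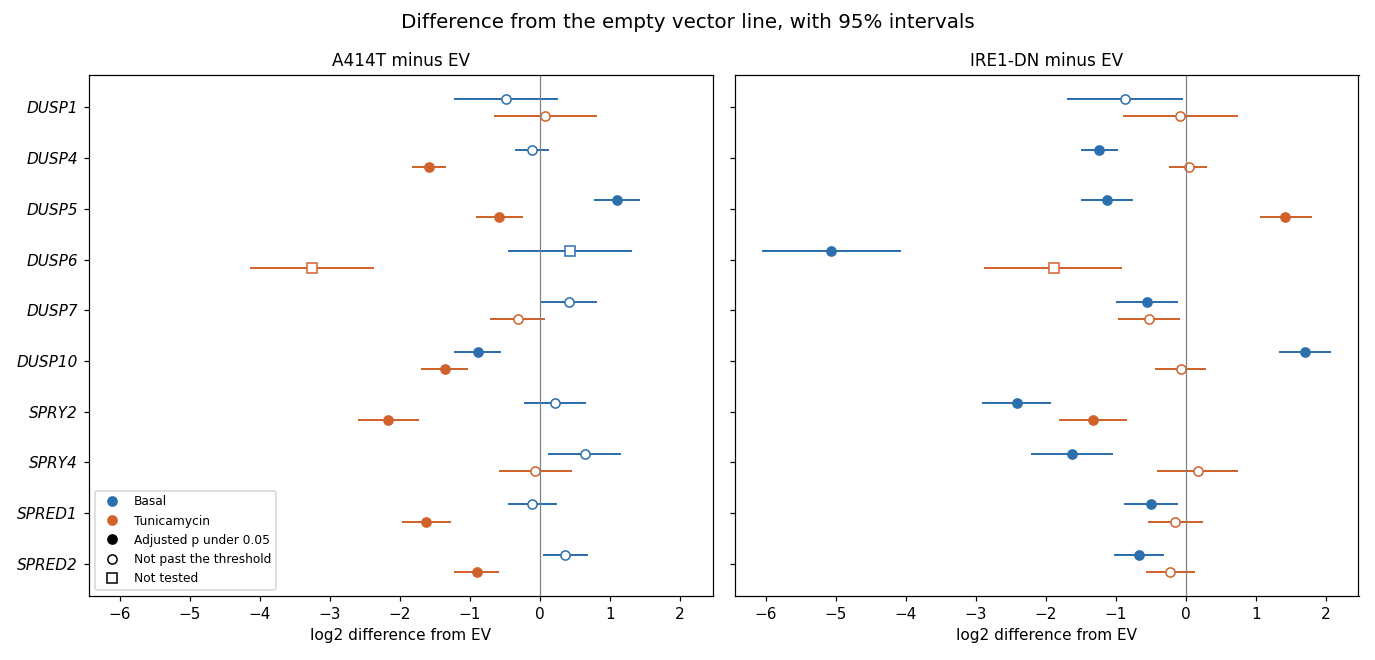
Log2 difference of A414T (left) and IRE1-DN cells (right) from EV cells for each gene, basal in blue and tunicamycin in orange, with 95% intervals from the fit over all arrays. Filled points passed an adjusted p of 0.05, open circles did not, and squares (DUSP6 in A414T cells and on tunicamycin) were not tested. The filled basal DUSP6 point of IRE1-DN cells is read as a value only, since the rule used its EV arrays. In IRE1-DN cells the basal points lie to the left of 0 for all genes but DUSP10, while in A414T cells most filled points are those on tunicamycin.

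SPRY2, which restrains signaling between receptors and RAS, moved most like DUSP6. Its basal signal was 11.10, 11.30 and 11.21 on the EV arrays, 11.42, 11.37 and 11.45 on the A414T arrays, and 8.86 and 8.72 on the IRE1-DN arrays. A414T lay above EV without overlap, by a difference (0.21, adjusted p = 0.611, limma) that did not pass the threshold, and IRE1-DN lay below every other line. The IRE1-DN difference from EV was -2.41 ± 0.23 (SE, adjusted p = 9.85e-10), 5.33-fold lower. On tunicamycin the EV arrays read 9.57, 9.33 and 8.90, the A414T arrays 7.36, 7.23 and 6.70, and the IRE1-DN arrays 8.31 and 7.56. EV lay above, and A414T below, all other lines without overlap. SPRY2 was the member called lower than EV on tunicamycin in all 6 lines, from -0.71 in S769F to -2.17 ± 0.21 in A414T cells (adjusted p = 1.83e-09, limma). Without EV tunicamycin replicate 1 the differences of WT (-0.58, adjusted p = 0.115), S769F (-0.56, adjusted p = 0.17) and Q780* (-0.72, adjusted p = 0.0534) no longer passed. The WT call was also lost without EV replicate 2 or WT replicate 3 (-0.70 and -0.61), and that of S769F without EV replicate 2 or S769F replicate 1 or 3 (-0.70 to -0.65).

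SPRY4, a second Sprouty gene, showed no such difference on tunicamycin, where its signal was low in every line. Its basal signal was 7.35, 7.31 and 7.21 on the EV arrays, 7.91, 7.80 and 8.07 on the A414T arrays, and 6.13 and 5.21 on the IRE1-DN arrays. The A414T arrays lay above all others and the IRE1-DN arrays below all others, and the latter difference passed (-1.62 ± 0.28 SE, limma adjusted p = 2.61e-05) while the former did not (0.64, adjusted p = 0.0751). With the mean of both probe sets the IRE1-DN difference was -0.89 (adjusted p = 0.000129). On tunicamycin the EV arrays read 5.91, 5.11 and 4.97, the A414T arrays 4.69, 5.81 and 5.30, and the IRE1-DN arrays 5.48 and 5.52. All lines overlapped with their neighbours in level, and in none of the 6 was SPRY4 called against EV. The group means on tunicamycin, 4.88 to 5.50, lay close to the filter signal of 4.27, so a lower level in A414T cells had little room to show. Its second probe set was at or above the filter signal on 17 of 40 arrays and lay between 3.76 and 4.67.

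SPRED1 and SPRED2, which keep RAS from activating RAF, were lower in tunicamycin-treated A414T cells. SPRED1 read 8.96, 8.80 and 8.66 on the EV tunicamycin arrays, 7.74, 6.96 and 6.84 on those of A414T, and 8.92 and 8.40 on those of IRE1-DN. A414T lay below every other line, by -1.63 ± 0.16 from EV (SE, limma adjusted p = 4.6e-09), and WT, S769F and P336L were called lower too (-0.50, -0.62 and -0.65). SPRED2 read 7.98, 7.71 and 7.59 in EV and 7.21, 6.75 and 6.61 in A414T cells on tunicamycin. The A414T difference was -0.90 ± 0.15 (adjusted p = 2.17e-05), with the A414T arrays below all arrays of the other lines, and that of Q780* was -0.46 (adjusted p = 0.0441). Averaged over all their probe sets, the A414T differences were smaller, -1.01 for SPRED1 and -0.27 for SPRED2 (adjusted p = 0.00757). These averages include probe sets near the floor. The third SPRED1 probe set (highest signal 4.09) and the other SPRED2 probe sets (3.83 and 3.68) reached the filter signal on 0 of 40 arrays. Under basal conditions IRE1-DN cells were lower than EV for SPRED1 (-0.50, adjusted p = 0.0427) and SPRED2 (-0.67, adjusted p = 0.0022, but -0.22 and 0.0512 with the mean of its probe sets). The second SPRED1 probe set gave -0.08 for that difference, and the mean of all SPRED1 probe sets did not pass (-0.20, adjusted p = 0.262). The basal SPRED1 call was also lost without either IRE1-DN array (-0.51, adjusted p = 0.128, and -0.48, adjusted p = 0.179) or any EV array (-0.54 to -0.47). On tunicamycin the SPRED1 call of WT was lost without EV replicate 1 or 2 or WT replicate 2 or 3 (-0.50 to -0.42), that of S769F without EV replicate 1 (-0.55) or S769F replicate 2 (-0.50), and the SPRED2 call of Q780* without any of EV replicates 1 and 2 and the 3 Q780* arrays (-0.52 to -0.35). The SPRED2 call of Q780* was lost as well with a block on the replicate number (adjusted p = 0.0516), with the ACTB 3' minus 5' signal as a covariate (adjusted p = 0.0532) and with the mean of its probe sets (-0.17, adjusted p = 0.21).

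DUSP4, a nuclear phosphatase, split A414T from the rest on tunicamycin. Its tunicamycin signal was 8.80, 8.87 and 8.84 in EV, 7.19, 7.35 and 7.21 in A414T, and 9.07 and 8.67 in IRE1-DN cells. The A414T arrays lay below all others, 3-fold lower than EV (-1.59 ± 0.11 SE, limma adjusted p = 2e-12), and WT differed by -0.39 (adjusted p = 0.0167), a call lost without WT tunicamycin replicate 2 (-0.29, adjusted p = 0.141) or EV tunicamycin replicate 2 (-0.37, adjusted p = 0.0632), and with a block on the replicate number (-0.39, adjusted p = 0.108). On all 3 probe sets the A414T difference was negative, from -3.03 to -1.23. Under basal conditions EV read 9.56, 9.33 and 9.40, A414T 9.26, 9.37 and 9.32, and IRE1-DN 7.96 and 8.42. Only IRE1-DN was called there (-1.24 ± 0.12, adjusted p = 1.76e-09). WT lay below EV without overlap on all 3 probe sets, but was not called on the one tested (-0.30, adjusted p = 0.104). On the second probe set the basal means were 8.42 in WT and 8.56 in P336L against 9.40 in EV cells, both without overlap with EV.

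DUSP5, the nuclear phosphatase that acts on ERK, turned in opposite directions in A414T and IRE1-DN cells. Its basal signal was 8.12, 8.0 and 7.79 in EV, 9.21, 9.05 and 8.95 in A414T, and 6.75 and 6.93 in IRE1-DN cells. A414T was highest of the 7 lines and IRE1-DN lowest, both without overlap with the next line (1.10 ± 0.16, adjusted p = 2.3e-06, and -1.13 ± 0.18, adjusted p = 5.81e-06, limma). On tunicamycin the order was reversed, with 7.85, 7.42 and 7.13 in EV, 6.93, 6.99 and 6.75 in A414T, and 8.87 and 8.93 in IRE1-DN cells. IRE1-DN was then highest of the 7 (1.42 ± 0.18 against EV, adjusted p = 1.35e-07) and A414T lowest (-0.58 ± 0.16, adjusted p = 0.00595), the latter lost without EV tunicamycin replicate 1 (-0.39, adjusted p = 0.0856). S769F and Q780* were higher than EV by 0.61 and 0.71, the former lost without EV tunicamycin replicate 3 (0.45, adjusted p = 0.118) or S769F tunicamycin replicate 1 (0.51, adjusted p = 0.0764).

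DUSP10, which acts on JNK and p38, was the member that was higher in basal IRE1-DN cells. Its basal signal was 7.63, 7.70 and 7.60 in EV, 6.57, 6.79 and 6.88 in A414T, and 9.49 and 9.19 in IRE1-DN cells. IRE1-DN was highest and A414T lowest, each apart from all other lines (1.70 ± 0.18, adjusted p = 4.1e-09, and -0.89 ± 0.16, adjusted p = 6.34e-05, limma). On tunicamycin it read 8.86, 8.26 and 8.34 in EV, 7.25, 7.26 and 6.85 in A414T, and 8.55 and 8.27 in IRE1-DN cells. A414T stayed lowest (-1.36 ± 0.16, adjusted p = 5.88e-08), P336L differed by -0.66 (adjusted p = 0.0037, and 0.0532 without EV tunicamycin replicate 1), and IRE1-DN overlapped EV. The P336L call was also lost with the mean of both probe sets. Its second probe set gave 2.44 for the basal IRE1-DN difference and -0.63 for that of A414T.

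DUSP7 was called against EV in 1 line and DUSP1 in 0. DUSP7, a cytoplasmic ERK phosphatase, read 8.72, 8.85 and 8.90 in EV, 9.07, 9.27 and 9.38 in A414T, and 8.13 and 8.42 in IRE1-DN cells under basal conditions. The A414T arrays were above all others, but the difference did not pass (0.41, limma adjusted p = 0.143). On the dimmer second probe set the basal A414T mean was 5.08, below those of EV (5.28) and P336L (5.18). The IRE1-DN difference was just past the threshold (-0.55, adjusted p = 0.0499). It did not pass without any 1 of the 5 arrays compared (-0.69 to -0.40), the weakest being without IRE1-DN basal replicate 2 (adjusted p = 0.315), nor with the arrays centred on their median (-0.52, adjusted p = 0.0897) or the ACTB 3' minus 5' signal as a covariate (-0.70, adjusted p = 0.0572). On tunicamycin DUSP7 lay between 6.59 and 7.68 on all 20 arrays. DUSP1, an immediate early phosphatase, lay between 9.27 and 11.25 on all 40 arrays, the ranges of neighbouring lines overlapped throughout, and it was called in none of the comparisons tested.

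The response to tunicamycin was read within each line, where DUSP6 and the A414T line carry no test. Of 9 members tested, 8 were called in EV (30.9% of all genes), 8 in WT (29.2%), 7 in S769F (30.6%), 7 in Q780* (35.9%), 7 in P336L (25.9%) and 6 in IRE1-DN cells (19.7%). DUSP7, SPRY2 and SPRED2 fell in all 6 lines. The second DUSP7 probe set, at 4.09 to 5.63, lay near the filter signal. Its mean in IRE1-DN cells was 4.38 basal and 4.45 on tunicamycin, while in the other lines its mean was lower on tunicamycin. The SPRY2 response was -1.94 in EV, -2.08 for WT, -2.23 for S769F, -2.41 for Q780* and -2.38 for P336L cells, and -0.85 in IRE1-DN cells, where the call was lost without IRE1-DN tunicamycin replicate 3 (-0.47, adjusted p = 0.364) or basal replicate 2 (-0.78, adjusted p = 0.109). The SPRED2 response of IRE1-DN cells (-0.59) was lost without tunicamycin replicate 3 (-0.35, adjusted p = 0.349) or either basal array (-0.61 and -0.58), and with the mean of its probe sets (-0.23, adjusted p = 0.0848). With the ACTB 3' minus 5' signal as a covariate neither the SPRY2 (-0.62, adjusted p = 0.188) nor the SPRED2 response of IRE1-DN cells (-0.59, adjusted p = 0.0787) passed. In the first 5 of these lines SPRY4 (-2.29 to -1.68), SPRED1 (-1.27 to -0.84) and DUSP4 (-0.69 to -0.33) fell throughout, and DUSP5 fell in EV (-0.50), WT (-0.86) and P336L cells (-0.54). Averaged over all probe sets of each gene, dim ones included, the SPRY4 responses of these lines ran from -1.07 to -0.82 and those of SPRED2 from -0.57 to -0.35, all still called. Single arrays decided some calls. DUSP4 did not pass in S769F cells without S769F basal replicate 1 (-0.28), basal replicate 2 (-0.31) or tunicamycin replicate 2 (-0.30), nor in Q780* cells without Q780* basal replicate 1 (-0.29). With the mean of its probe sets the DUSP4 call of Q780* was lost too. The second DUSP4 probe set read 9.02 basal and 8.93 on tunicamycin in Q780*, and 8.42 and 8.26 in WT cells (means). DUSP5 did not pass in EV cells without EV basal replicate 1 (-0.42) or EV tunicamycin replicate 3 (-0.33), nor in P336L cells without P336L tunicamycin replicate 3 (-0.39). DUSP10 rose by 0.60 to 0.85 in EV, WT, S769F and Q780* cells, and its P336L value was 0.15. On its second probe set the P336L mean did rise, from 5.79 to 6.46, beside 6.07 to 6.57 in S769F cells.

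IRE1-DN cells responded otherwise. DUSP5 rose by 2.06 ± 0.19 (SE, limma adjusted p = 2.34e-09), with both tunicamycin arrays above both basal arrays, and DUSP4 rose by 0.68 ± 0.13 (adjusted p = 0.000303, but 0.137 with only the arrays compared), with 0.45 to 0.91 when 1 array was left out. DUSP10 fell by 0.93 (adjusted p = 0.000501). SPRY4 (-0.17) and SPRED1 (-0.49) did not pass. The basal SPRY4 mean of IRE1-DN cells was already 5.67, against tunicamycin means of 4.88 to 5.50 over the lines, so it had little room to fall. In A414T cells the response was -4.32 for SPRY2, -2.66 for SPRY4, -2.36 for SPRED1, -2.31 for SPRED2, -2.26 for DUSP7, -2.18 for DUSP5, -2.06 for DUSP4, -0.25 for DUSP1 and 0.37 for DUSP10. For the 7 genes from SPRY2 to DUSP4 in that order the A414T response was the most negative of the 7 lines.

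**Figure D4:**
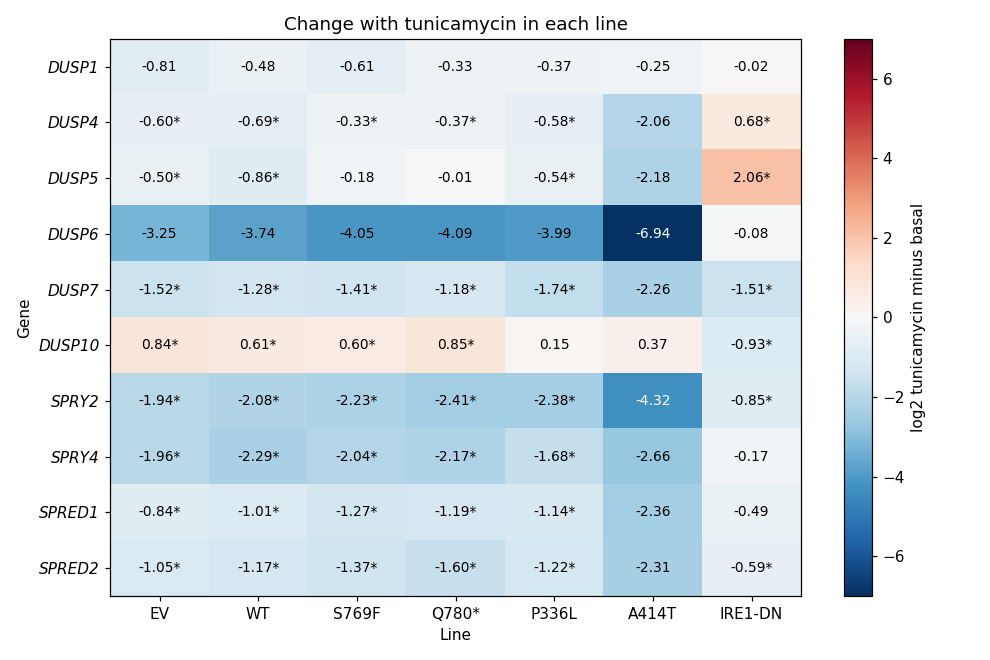
Log2 difference between tunicamycin and basal levels of each gene (rows) in each line (columns), with blue for lower and red for higher on tunicamycin, and an asterisk where the adjusted p was under 0.05. DUSP6 and the A414T column were not tested. The A414T column holds the most negative values, down to -6.94, and the IRE1-DN column holds the only positive values of DUSP4 (0.68) and DUSP5 (2.06).

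The difference of each line's response from that of EV was tested as an interaction for the same 9 members. In IRE1-DN cells 5 of 9 passed, against 5.19% of all genes. For the WT, S769F, Q780* and P336L lines 0 of 9 passed, where 0.499%, 0.494%, 0.912% and 0.813% of all genes did. The IRE1-DN response of DUSP5 exceeded that of EV by 2.56 ± 0.25 (SE, limma adjusted p = 5.2e-08), that of SPRY4 by 1.79 ± 0.39 (adjusted p = 0.00455), that of DUSP4 by 1.28 ± 0.17 (adjusted p = 1.27e-05) and that of SPRY2 by 1.09 ± 0.33 (adjusted p = 0.0494), while that of DUSP10 differed by -1.77 ± 0.25 (adjusted p = 1.93e-05). All these differences share the EV arrays and start from basal IRE1-DN levels already apart from EV. SPRY4 no longer passed without IRE1-DN basal replicate 3 (1.33, adjusted p = 0.0719) or with only the arrays compared (adjusted p = 0.064), its value was 0.92 with the mean of both probe sets, and SPRY2 was lost without any 1 of 8 arrays (0.71 to 1.16), those other than IRE1-DN tunicamycin replicate 3 and EV tunicamycin replicate 1.

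Across the 14 group means, the signal of DUSP6 correlated at r = 0.98 with SPRY2, 0.94 with SPRED2 and 0.93 with SPRY4, and at -0.54 with DUSP10. DUSP10 correlated negatively with all 9 other members, from -0.61 to -0.11. Over all tested genes the 5 most like DUSP6 were SPRY2 (r = 0.984), SFR1 (0.979), a factor of homologous recombination, ZCCHC4 (0.975), an RNA methyltransferase, LONRF3 (0.972), a RING finger protein, and TUT4 (0.970), which adds uridines to RNAs. SPRED2 was most like ELK3 (0.995), an ETS factor, CCND1 (0.979), which encodes cyclin D1, and DIAPH1 (0.976), a formin. SPRY4 was most like SPRY4-IT1 (0.977), a noncoding RNA that lies within the SPRY4 gene, whose probes may not be told apart from SPRY4 transcripts, followed by DLC1 (0.974) and SMAGP (0.972). For DUSP10 the nearest was GDPD5 (0.967). These values are a description over 14 means that share lines and treatment.

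Other known targets of ERK signaling followed the members in part. Of 18 tested genes of ERK transcriptional output, 11 fell with tunicamycin in EV cells and none rose, where 30.9% of all genes were called, with a median of -0.64 against 0.00 over all genes. The count was 11 lower in WT, 10 lower and 1 higher in both S769F and Q780*, and 9 lower in P336L cells. Among them in EV cells, the response of the receptor EPHA2 was -2.23, that of EGR1 -2.33, that of CCND1 -1.61 and that of SPHK1 -1.46. In IRE1-DN cells 3 fell and 1 rose, near the 19.7% of all genes, with a median of -0.11, and the riser was MAFF (1.07). Under basal conditions 7 of the 18 were called in IRE1-DN against EV cells (27.6% of all genes), 6 lower and 1 higher, with EPHA4 (-2.54) and the ETS factors ETV5 (-1.57) and ETV1 (-1.21) among the lower ones. In A414T cells under basal conditions 4 were called, near the 18.5% of all genes, all higher, with SPHK1 at 1.75 and FOSL1 at 1.37, and on tunicamycin 7 were called (24.8% of all genes), 6 lower and 1 higher, with ETV5 at -1.56, IER3 at -1.45 and ETV1 at -1.41.

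The genes above the feedback inhibitors are read against 27.6% of all genes called in basal IRE1-DN and 18.5% in basal A414T cells. Of 14 core cascade genes tested, 5 were called in IRE1-DN against EV cells under basal conditions, 3 higher and 2 lower, and 3 in A414T cells, 2 higher and 1 lower. SOS2, which loads RAS with GTP, was higher by 3.48 ± 0.20 in IRE1-DN (adjusted p = 5.91e-15, limma) and by 2.74 ± 0.18 in A414T cells (adjusted p = 3.52e-13), and MAP2K1, which encodes MEK1, was lower in IRE1-DN cells (-0.60). Of 11 receptor tyrosine kinases, 2 were called under basal conditions in IRE1-DN cells, ERBB2 (1.39) and IGF1R (1.35), and 1 in A414T cells, PDGFRB (-0.91). MET, the receptor of HGF, fell with tunicamycin in EV (-0.87) and IRE1-DN cells (-0.79). Of 12 ligands, 7 were called in IRE1-DN cells under basal conditions, 3 higher and 4 lower, HGF (-5.43) and TGFA (-2.29) among the latter, and 6 in A414T cells, 4 higher and 2 lower.

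Phosphatases and inhibitors outside the list are read against the same 27.6% of all genes in basal IRE1-DN cells, and these counts over few genes show nothing particular to them. Of 8 other MAP kinase phosphatases, 3 were called in IRE1-DN cells under basal conditions, all higher, namely DUSP16 (0.92), DUSP22 (0.79) and DUSP14 (0.44). In EV cells the same 3 rose with tunicamycin (0.67, 0.45 and 0.56), where 30.9% of all genes were called. Of 11 other inhibitors of receptor or RAS signaling, 2 were called in basal IRE1-DN cells, IL17RD, a receptor that restrains FGF signaling, higher by 2.06, and SOCS3, a cytokine feedback inhibitor, lower (-1.30, adjusted p = 0.0495, limma). The SOCS3 response to tunicamycin was -3.44 in EV and -3.15 in IRE1-DN cells, both called. Of 9 kinases of the JNK and p38 branch, 3 were called in basal IRE1-DN cells, MAP2K6 (-2.97) and MAP3K5 (-2.28) lower and MAPK8, which encodes JNK1, higher (1.14).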

How the data were processed

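RNA of 40 cultures was hybridised to Affymetrix arrays, from 6 µg of total RNA each. The deposited values are log2 signals, made by the authors with RMA (background correction, quantile normalization and a summary per probe set). The RMA version is not stated there, and array intensities from scanner files were not analysed here.

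Of 54715 probe sets, 40914 had 1 gene symbol, 864 had several, 12835 had none and 102 were controls. The probe set with the highest mean stood for each gene. A gene was tested where 2 or more arrays reached the 40th percentile of all signals (4.27).

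The fit covered the 14 group means of all 40 arrays (limma 3.58.1, R 4.3.3, degrees of freedom 26 residual plus 3.439 prior), with p-values adjusted over 17220 genes, and the fit was tested on simulated data. Python 3.11.15 and matplotlib 3.10.9 served for motifs and figures. The number of arrays sets the precision. The labels call the arrays biological replicates.

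The 10 members and the gene lists were chosen with earlier results of these data known. DUSP6 was in the planned counts of calls against EV, both basal and on tunicamycin, and is given here as values only, since the rule used the same EV arrays. All members are named, as are at most 4 called genes of a list with the largest changes, the 5 genes most like DUSP6 and the nearest genes of 3 other members. Alternatives covered the filter, the probe set rule, scaling, the arrays fitted, the methods' t-test, a replicate block, 2 array quality measures and each array left out. Same-numbered arrays deviated together (every r over 0.1) in 5 of 16 comparisons with 3 pairs, namely basal WT, S769F and Q780*, and tunicamycin-treated WT and Q780*, each against EV, and the labels do not say what the number stands for.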

Additional observations from a re-analysis of the deposited data

Results flagged for a closer look

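Of the members tested, 5 differed between IRE1-DN and EV cells in their response to tunicamycin by a test of the difference itself (limma, adjusted over all genes). DUSP5 differed by 2.56, SPRY4 by 1.79, DUSP4 by 1.28, SPRY2 by 1.09 and DUSP10 by -1.77 (log2, IRE1-DN minus EV). DUSP5 and DUSP10 passed under every scaling, filter and probe set rule and with each array of the comparison left out. SPRY2 was past the threshold by little (adjusted p = 0.0494) and was lost in 15 of 25 settings, and its value over all 25 lay between 0.71 and 1.46. SPRY4 was lost without IRE1-DN basal replicate 3 (1.33) and with only the arrays compared (adjusted p = 0.064), and DUSP4, SPRY4 and SPRY2 with a replicate block on only the arrays compared (adjusted p = 0.0586, 0.0552 and 0.115).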

How the results depend on the processing

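Of 82 member calls, 33 were made under every alternative and with each array of their comparison left out. Calls made under all except the fold minimum of 2 and the methods' t-test after adjustment numbered 53, and 0 changed direction. The 82 include DUSP6 in basal IRE1-DN cells and 3 DUSP6 calls on tunicamycin, which the report gives as values only. Against EV under basal conditions 11 of 59 were called, 7 with a fold minimum of 2 and 29 by the unadjusted methods' t-test, and 9 to 13 with 1 array left out. These basal counts include DUSP6, which carries no test here. Against EV on tunicamycin 23 of 59 were called, 3 of them DUSP6 values that carry no test here. Without DUSP6, 20 of 54 were called, 9 with only the arrays compared and 13 without EV tunicamycin replicate 1. With DUSP6 counted, 10 were called with a fold minimum and 9 with only the arrays compared. The methods' t-test after adjustment then gave 3, and replicates 2 and 3 only gave 14. With 1 array left out there were 14 to 25, the lowest without EV tunicamycin replicate 1. For responses 43 of 54 were called, 26 with a fold minimum and 41 to 44 with 1 array left out. For differences of response 5 of 45 were called, 3 with only the arrays compared, 1 by the methods' t-test after adjustment and 9 without adjustment, and 3 to 5 with 1 array left out, 3 without IRE1-DN basal replicate 3. The cause was not tested. The replicate block on only the arrays compared gave 13 calls on tunicamycin against EV and 2 for differences of response, where DUSP4 (adjusted p = 0.0586), SPRY4 (0.0552) and SPRY2 (0.115) were lost, and with the replicate block over all arrays 15 under basal conditions and 25 on tunicamycin. With 2 IRE1-DN arrays a group, a left-out array leaves 1, which is assumed to vary like the other groups.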
